A study of Rattus norvegicus with 18 samples.

Results

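Arc and Homer1, a pair of synaptic genes whose transcription follows neuronal activity, were followed in the dorsal hippocampus (dHC) and the prelimbic cortex (PL) of adult Long-Evans rats after inhibitory avoidance training. In this task a rat learns to avoid a compartment after being given a foot shock in it. Both genes were taken by their Ensembl gene IDs, Arc as ENSRNOG00000043465 and Homer1 as ENSRNOG00000047014, which makes 2 of the 32662 genes in the count tables. The design had 6 groups of 3 pools, and each pool combined RNA from 5 rats. In each region rats were either naive, remaining in the home cage, or trained and killed 1 h or 6 d later. All groups were of this outbred strain, and the labels name no drug, mutation or transgene. The naive rats stayed in the home cage, so learning, shock, handling and a new place cannot be told apart as sources of a difference at 1 h. The tissue was punched from frozen brain, and in such bulk RNA fewer cells of a type and less RNA per cell cannot be told apart.

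Arc is an immediate early gene. Its mRNA is made within minutes of strong synaptic input and travels into dendrites, where the protein takes part in the removal of AMPA-type glutamate receptors from the synapse. Homer1 encodes scaffold proteins of the postsynaptic density that bind group I metabotropic glutamate receptors, Shank proteins and inositol trisphosphate receptors. Long Homer1 proteins pair through a coiled coil and link these partners. A short form, Homer1a, lacks the coiled coil, is made by early polyadenylation after activity and competes with the long forms. The counts are per gene, so short and long Homer1 transcripts were added together, and a change in the short form alone would be diluted by the long forms.

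The promoter of Homer1 is shown because it is the member for which the RefSeq table of assembly GRCr8 holds one. The 250 bases before the annotated start lie on the plus strand at chr2:26278762-26279011 of GRCr8, a newer assembly than the one behind the counts, and are printed 5′ to 3′ with an E-box match in capitals.
Homer1: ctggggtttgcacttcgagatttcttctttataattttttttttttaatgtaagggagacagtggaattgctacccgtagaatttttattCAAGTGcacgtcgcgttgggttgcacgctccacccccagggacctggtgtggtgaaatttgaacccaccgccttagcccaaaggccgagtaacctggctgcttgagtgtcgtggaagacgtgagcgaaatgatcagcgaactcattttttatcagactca
Searched on both strands, the window held 1 E-box (CANNTG), which is its own reverse pattern and occurs in 65.5% of the 33469 promoter windows of this length. It held no full CRE (TGACGTCA, 1.59% of windows), no CRE core (TGACG, contained in the full site, 18.2%), no AP-1 site (TGANTCA, 6.34%), no CArG box of the serum response element (1.50%) and no MEF2 site (2.96%). A TATAAA match lay on the opposite strand, 218 to 223 bases before the start, and TATAAA occurs in 12.9% of windows. No match says only that these letters are not in this window. Arc has no entry in that table.

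In the same annotation a long non-coding RNA gene, LOC134479925, overlaps Arc, and no annotated gene overlaps Homer1. The strand setting of the counting is not given in the sources used here, so reads of such an overlapping transcript and of Arc cannot be told apart. Levels are given as CPM, gene counts divided by the scaled size of their library, with TMM factors computed over all 18 libraries, which ran from 0.970 to 1.03. Gene-assigned reads ran from 7463875 to 9215695 per library, and 3 counts, the floor used for detection, equal 0.326 to 0.402 CPM. Both genes lay far above it, with 354 to 1875 Arc counts and 396 to 887 Homer1 counts per library. The labelled regions were not checked against marker genes, because the tables pair no gene IDs with names. The comparisons were made with edgeR's quasi-likelihood test over all genes, and a gene is called at a Benjamini-Hochberg adjusted p under 0.05.

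Arc was raised at 1 h in both regions, less than 2-fold in dHC and about 4-fold in PL. Homer1 was raised 1.25-fold in PL, a call lost in 4 of 15 alternatives, and its 1.26-fold change in dHC was not called. In dHC, Arc stood at 144, 116 and 159 CPM in the 1 h pools, against 72.2, 75.0 and 86.4 CPM in the naive pools. The lowest 1 h pool, pool 2, was above the highest naive pool. In dHC 17.4% of the 14305 genes tested had no overlap between these groups, in either direction. The means were 140 ± 21.9 CPM at 1 h and 77.9 ± 7.54 CPM in naive dHC (SD, n = 3 each). The log2 fold change was 0.84 (SE 0.097, 95% interval 0.64 to 1.04, edgeR adjusted p = 0.000147), or 1.79-fold. By size it was number 8 of the 31 genes called higher in dHC, and 0.217% of the 14305 genes tested were called higher. With each dHC pool left out in turn the log2 fold change ran from 0.74 to 0.96, and the gene was called each time.

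Homer1 in dHC stood at 75.6, 59.5 and 70.6 CPM in the 1 h pools, against 44.2, 61.9 and 57.2 CPM in the naive pools. Here the groups overlapped, since 1 h pool 2 was below naive pool 2. The means were 68.6 ± 8.21 CPM at 1 h and 54.4 ± 9.18 CPM in naive dHC (SD, n = 3 each). The log2 fold change was 0.34 (SE 0.10, 95% interval 0.12 to 0.55), and it was not called (edgeR adjusted p = 0.227). It was called when genes with low counts were kept in the fit (log2 fold change 0.34, adjusted p = 0.00551). That setting raised the count of all genes called in dHC at 1 h from 32 to 275. Without naive pool 1, the lowest of the 3, the log2 fold change of Homer1 was 0.20, and the value was 0.44 without naive pool 2, the highest.

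In PL, Arc stood at 190, 186 and 214 CPM in the 1 h pools, against 45.2, 43.2 and 52.3 CPM in the naive pools. Every 1 h pool was thus far above every naive pool. In PL 20.7% of the 14318 genes tested had no overlap between these groups, in either direction. The means were 196 ± 15.0 CPM at 1 h and 46.9 ± 4.77 CPM in naive PL (SD, n = 3 each). The log2 fold change was 2.07 (SE 0.092, 95% interval 1.88 to 2.27, edgeR adjusted p = 1.35e-12), or 4.21-fold. It was the smallest p of the 14318 genes tested in PL, and by size the rise was sixth of the 112 genes called higher.

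Homer1 in PL stood at 97.8, 104 and 99.996 CPM in the 1 h pools, against 85.7, 75.0 and 81.5 CPM in the naive pools. The groups did not overlap, as was so for 20.7% of the genes tested in PL. The lowest 1 h pool, pool 1, was above the highest naive pool, also pool 1. The means were 101 ± 3.06 CPM at 1 h and 80.7 ± 5.39 CPM in naive PL (SD, n = 3 each). The log2 fold change was 0.32 (SE 0.067, 95% interval 0.18 to 0.46, edgeR adjusted p = 0.0139), or 1.25-fold. Among the 112 genes called higher it was number 102 by size. Both members were therefore called higher in PL at 1 h, as were 0.782% of all genes tested there. The Homer1 call was lost without naive pool 2 (adjusted p = 0.115), without 1 h pool 2 (adjusted p = 0.0948) or pool 3 (adjusted p = 0.0669), and with all 18 libraries in one fit (adjusted p = 0.0766), in an edgeR and DESeq2 range of 0.00170 to 0.115.

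**Figure D1:**
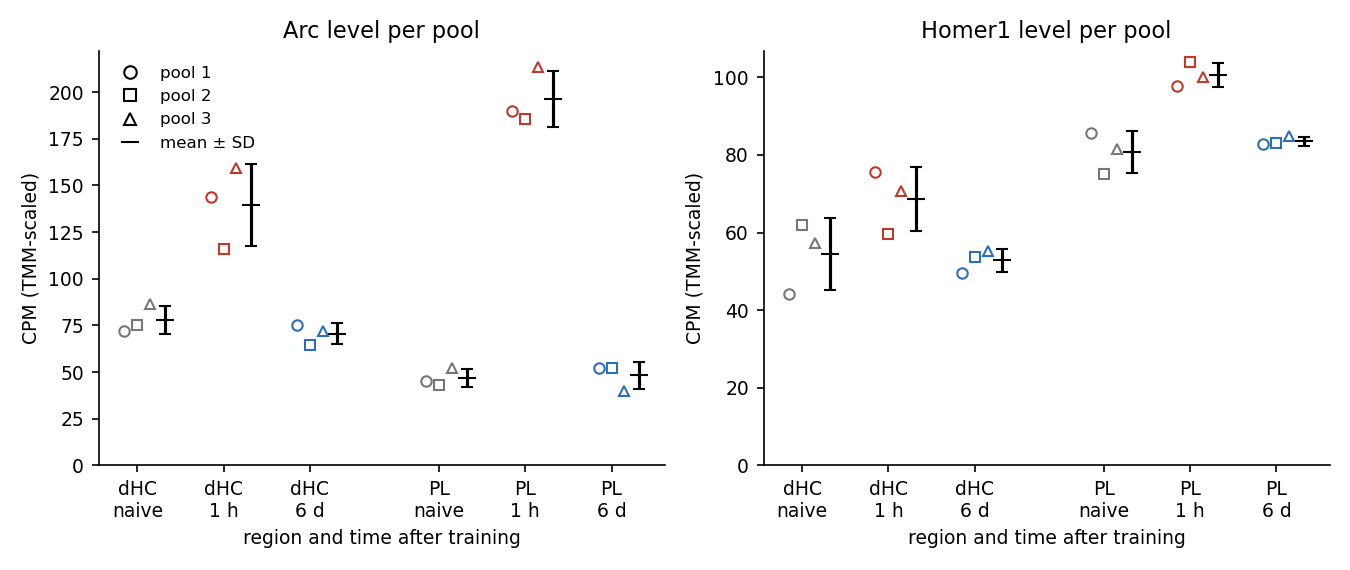
Level of Arc (left) and Homer1 (right) in every pool, in TMM-scaled CPM, by region and time after training, with the mean and SD of 3 pools beside the points. Arc reached 116 to 159 CPM in dHC at 1 h and 186 to 214 CPM in PL at 1 h, while the naive and 6 d pools of both regions lay between 40.0 and 86.4 CPM.

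The question whether training acted alike in the regions was put to the difference of the 1 h changes. For Arc this difference, dHC minus PL, was −1.23 on the log2 scale (SE 0.15, 95% interval −1.53 to −0.92, edgeR adjusted p = 0.000114). The ratio of the fold changes, dHC over PL, was thus 0.428, with an interval of 0.347 to 0.527. Arc had the smallest p of the 14784 genes in this test, in which 14 genes, or 0.0947%, were called. It was called in all 23 alternatives run, with adjusted p between 5.26e-27 and 0.00127. For Homer1 the difference was 0.021 (SE 0.13, 95% interval −0.24 to 0.29, edgeR adjusted p = 0.983), so that the ratio of the fold changes, dHC over PL, lay between 0.845 and 1.22. Beside a PL change as small as that of Homer1, this interval is wide. Its sign changed when any of 5 pools was left out, and the value then ran down to −0.11.

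**Figure D2:**
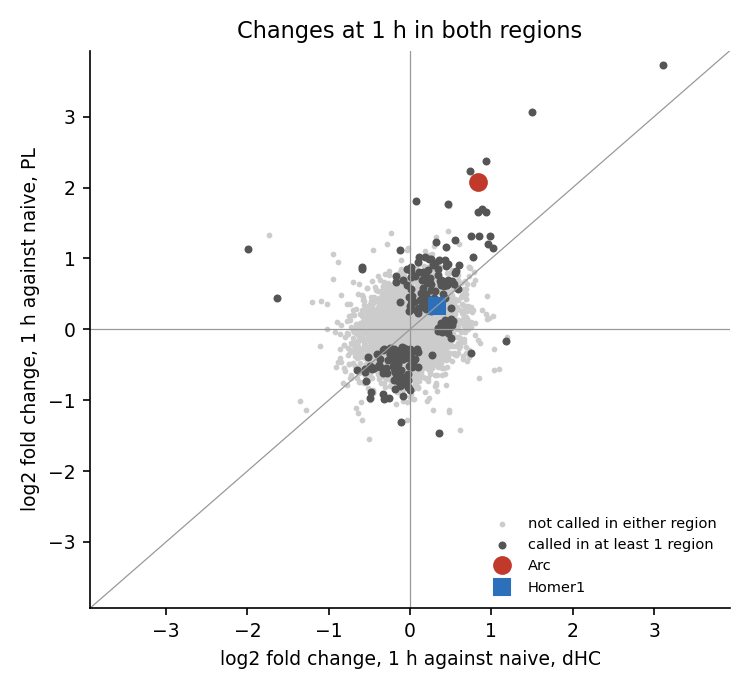
Log2 fold change at 1 h against naive in dHC (x axis) and in PL (y axis) for genes tested in both regions, each point a gene, with the line of equal change. Arc lies above that line, at 0.84 in dHC and 2.07 in PL, and Homer1 lies close to it, at 0.34 in dHC and 0.32 in PL.

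The regional order of Arc turned round at 1 h. In naive rats dHC had more Arc than PL, 77.9 against 46.9 CPM on average, a log2 difference of 0.73 (SE 0.11, edgeR adjusted p = 3.47e-06). At 1 h dHC had less Arc than PL, 140 against 196 CPM, a log2 difference of −0.49 (SE 0.097, edgeR adjusted p = 0.000118). At 6 d the naive order was back, with 70.5 CPM in dHC and 48.2 CPM in PL, a log2 difference of 0.55 (SE 0.11, edgeR adjusted p = 0.000190). At each of these times no dHC pool overlapped a PL pool. Differences between regions were common among all genes, as 46.3% of the 14784 tested were called in naive rats, 47.9% at 1 h and 45.8% at 6 d. Pools of the regions did not overlap for 54.3% of these genes in naive rats, 57.5% at 1 h and 50.7% at 6 d.

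Homer1 was lower in dHC than in PL at every time. The log2 difference, dHC minus PL, was −0.57 in naive rats (SE 0.093, edgeR adjusted p = 9.56e-06), −0.55 at 1 h (SE 0.089, edgeR adjusted p = 8.88e-06) and −0.66 at 6 d (SE 0.093, edgeR adjusted p = 1.17e-06). In fold terms dHC held 0.672, 0.682 and 0.632 of the PL level at these times. No dHC pool reached the level of a PL pool of the same time. Such a separation of the regions, in either direction, held for 50.7% to 57.5% of all genes tested. These regional calls of both genes held in all 23 alternatives run for each.

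Neither Arc nor Homer1 at 6 d passed the test against naive, in dHC or in PL. Arc in dHC was at 75.1, 64.4 and 72.1 CPM in the 6 d pools, of which 2 lay below the lowest naive pool. The mean of 70.5 ± 5.51 CPM (SD, n = 3) corresponded to −0.14 as log2 fold change over naive (SE 0.10, 95% interval −0.36 to 0.069, edgeR adjusted p = 0.911). Homer1 was at 49.5, 53.7 and 55.3 CPM, inside the naive range, with a log2 fold change of −0.039 (SE 0.11, 95% interval −0.26 to 0.19, edgeR adjusted p = 0.981).

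In PL, Arc was at 52.4, 52.1 and 40.0 CPM in the 6 d pools, so that pool 2 lay inside the naive range, pool 1 just above it and pool 3 below it. The mean of 48.2 ± 7.08 CPM (SD, n = 3) gave 0.046 as log2 fold change over naive (SE 0.10, 95% interval −0.16 to 0.25, edgeR adjusted p = 0.999). Homer1 in PL was at 82.8, 83.0 and 84.9 CPM, a log2 fold change of 0.057 (SE 0.068, 95% interval −0.084 to 0.20, edgeR adjusted p = 0.999). All 3 of these pools lay inside the naive range. The intervals leave room for a 6 d level of Arc between 0.781 and 1.05 times naive in dHC and between 0.893 and 1.19 times naive in PL. For Homer1 they reach from 0.833 to 1.14 in dHC and from 0.944 to 1.15 in PL. The number of genes called at 6 d by edgeR was 0 in both regions. An unadjusted p under 0.05 was reached by 804 of 14305 genes in dHC and 497 of 14318 in PL. Without any change, a share of 0.05 is expected to reach it. DESeq2 called 1 in dHC and 0 in PL. The difference between regions in the 6 d change was −0.18 for Arc (SE 0.16) and −0.089 for Homer1 (SE 0.13), and neither was called (edgeR adjusted p = 1.000 each).

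Set directly against 1 h, Arc at 6 d was lower in both regions. The log2 fold change, 6 d minus 1 h, was −0.99 in dHC (SE 0.098, edgeR adjusted p = 1.81e-05) and −2.03 in PL (SE 0.092, edgeR adjusted p = 1.88e-12), and 6 d pools did not overlap 1 h pools in either region. Such a lack of overlap, in either direction, was found for 18.3% of genes tested in dHC and 19.9% in PL. In dHC the 6 d pools of Homer1 all lay below the 1 h pools, so it was among the 18.3% of genes without overlap there. Its log2 fold change in dHC was −0.38 (SE 0.10, edgeR adjusted p = 0.0950), which was not called. That value passed in 6 of 15 alternatives and stayed uncalled in 9. It passed with a replicate block (adjusted p = 0.0289), with only the groups compared (adjusted p = 0.0476) and with all 18 libraries (adjusted p = 0.0451). It also passed when genes with low counts were kept (adjusted p = 0.000445), without 1 h pool 2 (adjusted p = 0.0361) and without naive pool 1 (adjusted p = 0.0425). The count of all genes called was 158 in the main fit and ran from 142 to 623 in these 6 alternatives. Without 1 h pool 1 or pool 3 the edgeR adjusted p of Homer1 was 0.329 and 0.331. In PL Homer1 was lower at 6 d by the same comparison (−0.27, SE 0.067, edgeR adjusted p = 0.0353). In dHC Arc alone of the pair was thus called lower, as were 0.699% of all genes tested, and in PL both members, where the share was 1.05%. The PL call of Homer1 was lost when any single 1 h or 6 d pool was left out, with edgeR adjusted p between 0.0648 and 0.153, and with all 18 libraries in one fit (adjusted p = 0.123). This comparison shares its 1 h pools with that of 1 h against naive, so both carry any chance deviation of those pools.

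**Figure D3:**
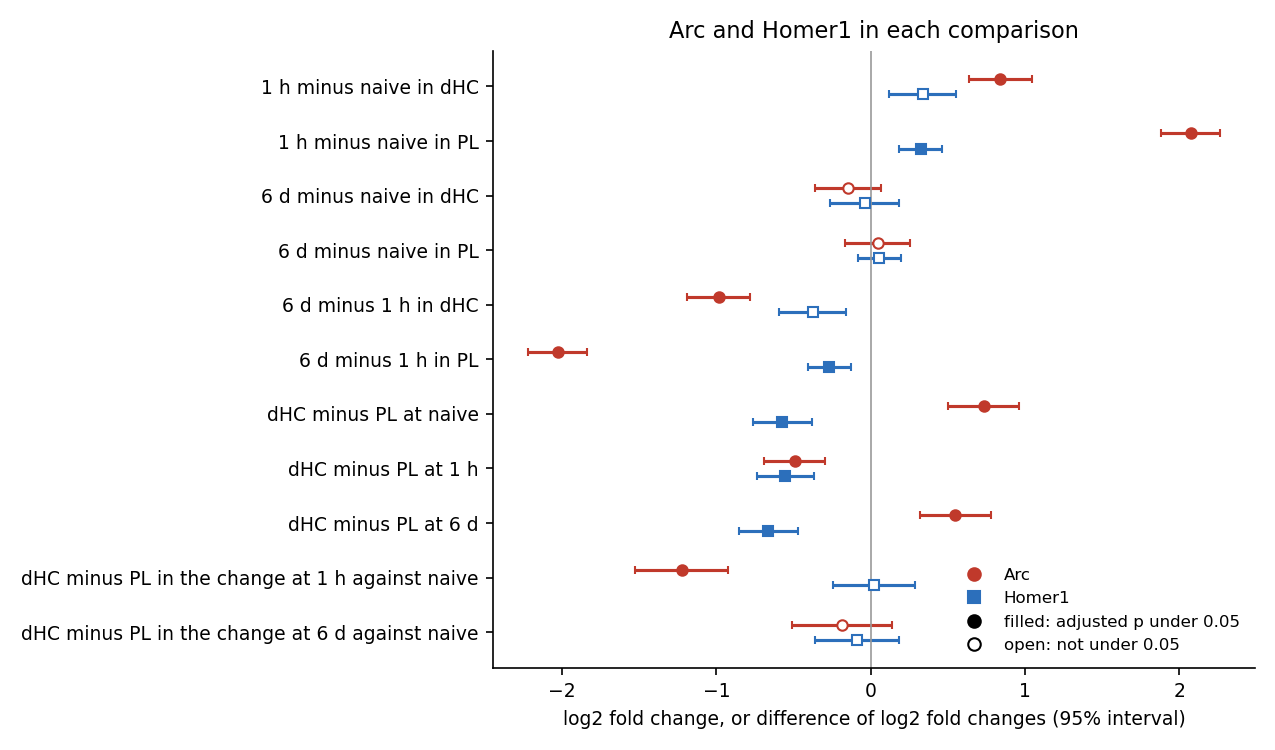
Log2 fold change of Arc (circles) and Homer1 (squares) in each comparison, with 95% intervals from edgeR, where the last 2 rows give the difference of the log2 fold changes between regions. Filled symbols mark an adjusted p under 0.05, and the pair lies far apart where PL at 1 h is set against naive, with 2.07 for Arc and 0.32 for Homer1, and where PL at 6 d is set against 1 h, with −2.03 and −0.27.

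Over all 6 groups the order of the mean Arc level ran from PL at 1 h through dHC at 1 h, naive dHC, dHC at 6 d and PL at 6 d to naive PL. Neighbours in this order overlapped between naive dHC and dHC at 6 d and between PL at 6 d and naive PL. The other neighbouring groups did not overlap. Such a lack of overlap, in either direction, held for 57.5% of genes tested between the regions at 1 h. It held for 17.4% between dHC at 1 h and naive dHC, and for 50.7% between the regions at 6 d. For Homer1 the order was PL at 1 h, PL at 6 d, naive PL, dHC at 1 h, naive dHC and dHC at 6 d. There only PL at 1 h stood clear of the next group, PL at 6 d, and 19.9% of genes tested showed no overlap between these groups. All further neighbours overlapped, naive PL and dHC at 1 h by 0.547 CPM. Arc at 1 h thus stood above both naive regions, while every Homer1 group mean in dHC stayed below every mean in PL.

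The pair was then set against each other within each pool, as the log2 ratio of Arc counts to Homer1 counts, which does not depend on library scaling. The ratio is not per length, so its sign does not say which gene had more transcripts, and only differences of the ratio between groups are read. In dHC the ratio was 0.93, 0.96 and 1.17 in the 1 h pools, against 0.71, 0.28 and 0.59 in the naive pools. The difference of the means was 0.49, so the fold change of Arc was 1.41 times that of Homer1. In PL it was 0.96, 0.84 and 1.09 in the 1 h pools, against −0.92, −0.79 and −0.64 in the naive pools. The difference there was 1.75, or 3.36-fold. In both regions the 1 h and naive pools did not overlap (exact permutation p = 0.1 each, two-sided, adjusted p = 0.15 over 6 comparisons). With 3 pools against 3 no smaller p is possible, so these differences could not pass 0.05.

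At 6 d the ratio was 0.60, 0.26 and 0.38 in dHC pools and −0.66, −0.67 and −1.08 in PL pools. Against naive it differed by −0.11 in dHC (exact permutation p = 0.5) and by −0.019 in PL (exact permutation p = 0.8), within the spread of the pools. Against 1 h it differed by −0.60 in dHC and −1.77 in PL, with no overlap (exact permutation p = 0.1 each, adjusted p = 0.15). At 1 h the means of this ratio were 1.02 ± 0.13 in dHC and 0.96 ± 0.13 in PL (SD, n = 3 each), and in naive pools they were 0.53 ± 0.22 in dHC and −0.79 ± 0.14 in PL. The regions were not tested against each other in this ratio.

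**Figure D4:**
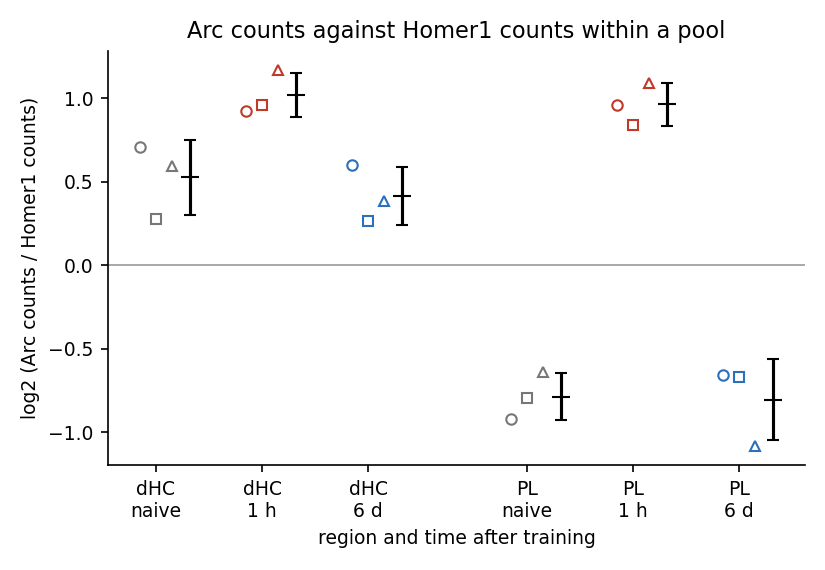
Log2 of Arc counts over Homer1 counts in each pool, by region and time after training, with the mean and SD of 3 pools. The 1 h pools of dHC and PL lie between 0.84 and 1.17, while the naive and 6 d pools lie between 0.26 and 0.71 in dHC and between −1.08 and −0.64 in PL.

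Genes with a course like that of each member were ranked by the Pearson correlation of log2 CPM over the 18 libraries, centred within each region, among 14300 other genes with a mean of at least 1 CPM. The libraries share groups, so the correlations are descriptions. The closest genes were chosen by these values, so likeness in their changes is part of the choice. Centring leaves out differences in level between the regions. The gene closest to Arc was ENSRNOG00000005600 (r = 0.973), which the sources used here do not name. In dHC it stood at 61.6, 49.5 and 67.2 CPM in the 1 h pools, against 31.8, 34.6 and 33.1 CPM in the naive pools. In PL it stood at 25.0, 24.5 and 28.0 CPM in the 1 h pools, against 10.1, 9.003 and 12.2 CPM in the naive pools. As for Arc, dHC pool 2 was the lowest of the 1 h pools of its region and PL pool 3 the highest. The gene was chosen by these same values, so this likeness is no separate result. Its log2 fold changes were 0.84 in dHC (SE 0.096, edgeR adjusted p = 0.000135) and 1.32 in PL (SE 0.13, edgeR adjusted p = 5.52e-07). The difference of these changes, dHC minus PL, was −0.47 and, unlike that of Arc, was not called (edgeR adjusted p = 0.488). At 1 h this gene was higher in dHC than in PL, as it was in naive pools, whereas Arc at 1 h was lower in dHC. At 6 d this gene was also higher in dHC, at 36.5, 36.2 and 35.0 CPM against 11.2, 12.4 and 10.2 CPM in PL. Its level was not tested between regions. By Spearman correlation it ranked number 12 (rho = 0.856).

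The last of the 5 genes closest to Arc had r = 0.965. The gene closest to Homer1 was ENSRNOG00000014338 (r = 0.921), also the closest by Spearman correlation (rho = 0.922). Its log2 fold changes at 1 h were small, as those of Homer1 were, with 0.36 in dHC (SE 0.078, edgeR adjusted p = 0.0663) and 0.26 in PL (SE 0.067, edgeR adjusted p = 0.0521), and neither was called. Arc and Homer1 themselves correlated with r = 0.742, which placed Homer1 at number 166 from Arc and Arc at number 59 from Homer1.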

How the data were processed

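RNA was sequenced from 18 pools, with libraries made by a stranded kit that selects polyadenylated RNA, per the labels' protocols. The deposited values are whole-number read counts per Ensembl gene, not normalized. The submitters' processing notes list DESeq2, Picard 1.126, bedtools 2.17.0 and the assembly Rnor_6.0, without saying what each was used for. No source used here gives the aligner, the counting program or its strand setting. Reads assigned to no gene fill 5 closing rows, with 63.3% to 68.3% of all reads, and were left out.

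Tests used R 4.3.3 and edgeR 4.0.16 (glmQLFit, glmQLFTest, two-sided, TMM, filterByExpr by group, Benjamini-Hochberg over all genes tested). Both genes passed the filter in every main comparison. Comparisons within a region used its 9 libraries, those between regions all 18. The labels do not say whether dHC and PL pools came from the same rats, so tests between regions treated them as independent. Standard errors were derived from the F statistic. DESeq2 1.42.0 and the other alternatives are given in the closing section. Log ratios used a pseudocount of 0.5, and likeness a prior count of 2. Floors cover counting error only. The labels call the pools of a group independent.

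The members and lists were chosen with earlier results of these data known. The reference table of GRCr8 held 0 of the 32662 gene IDs, so 13 gene lists, 7 of them cell type markers, were not tested. The naming rule took the 2 unnamed IDs most like each member, of which only the closest is printed. No replicate library repeated another: chi-square per degree of freedom between replicates ran from 1.67 to 4.98.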

Additional observations from a re-analysis of the deposited data

Results flagged for a closer look

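Arc was singled out because its 1 h change differed between the regions by a test of the difference itself. The value was −1.23 in log2 fold change, dHC minus PL (edgeR adjusted p = 0.000114), with Arc higher at 1 h than in naive pools in all 3 pools of each region. No overlap between these groups, in either direction, was seen for 17.4% of genes tested in dHC and 20.7% in PL. With each of the 18 libraries left out in turn the regional difference for Arc ran from −1.34, without dHC 1 h pool 3, to −1.12, without dHC 1 h pool 2. Of the pair, Homer1 was not singled out. Groups of 3 pools are too small for a check of single pools far from the others.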

How the results depend on the processing

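Over 28 results and 458 recomputed values, 427 kept their direction and, where it could change, their side of the threshold. The Arc to Homer1 ratios could not pass it and were judged by direction alone. Every called Arc result kept both. The result for Homer1 at 1 h in dHC passed when genes with low counts were kept (0.34), and at 1 h in PL it failed with all 18 libraries (0.32) and ran from 0.27 to 0.36 with single pools left out. For Homer1 at 6 d against 1 h in dHC the value was −0.38 with all 18 libraries, with only the groups compared, with low counts kept and with a replicate block, all of which passed, and −0.47 to −0.30 with single pools left out. In PL the same comparison gave −0.27 with all 18 libraries and −0.29 to −0.24 with single pools left out. The cause was not tested. Signs turned only among uncalled values, with single pools left out. These ran from −0.17 to 0.060 for Homer1 at 6 d in dHC, −0.018 to 0.16 for Arc at 6 d in PL, and −0.092 to 0.12 for the Arc to Homer1 ratio at 6 d in PL. For the regional difference of the Homer1 change they ran from −0.11 to 0.12 at 1 h and from −0.22 to 0.0090 at 6 d.

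The count of all genes called, behind the background shares, was 32 in dHC at 1 h and ran from 14 to 275 over the alternatives. It was 206 in PL at 1 h, with a range of 87 to 574, and 14 for the regional difference at 1 h, with a range of 6 to 117. For 6 d against 1 h it was 158 in dHC, with a range of 18 to 623, and 317 in PL, with a range of 149 to 675. For 6 d against naive it was 0, with up to 31 in dHC and 8 in PL when low counts were kept, and 12 for the regional difference. The replicate numbers were not taken as pairing the pools, since no label says that they do. In their deviations 4 of 45 same-numbered pairs correlated above 0.1. Pairs of unlike number also passed 0.1, such as PL naive pool 3 with PL 6 d pool 2 (0.159), so that count alone does not decide. Yet 11 of 18 libraries correlated best with their own number. The median correlation was small both for same-numbered pairs (0.0099) and for other pairs (−0.0035). Whether the pools were paired is thus not settled by the data or the design. The replicate block gave 150 genes in dHC and 312 in PL at 1 h, and for Arc and Homer1 it changed the call of Homer1 at 6 d against 1 h in dHC alone. By Spearman correlation another gene was closest to Arc (rho = 0.946), and 2 of the 5 closest were shared for each member.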

Other observations

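The spread between the pools of each group was set beside counting error. For Homer1 the coefficient of variation of CPM was 12.0% in dHC at 1 h, 5.68% in dHC at 6 d and 16.9% in naive dHC. In PL it was 3.04% at 1 h, 1.40% at 6 d and 6.67% in naive pools. Counting error alone corresponds to between 3.38% and 4.79% in these groups. For Arc it was 15.7% in dHC at 1 h and 14.7% in PL at 6 d, where counting error corresponds to 2.84% and 4.98%, and between 7.64% and 10.2% in the other 4 groups. Differences in spread between groups of 3 pools were not tested. A pool that was high for Arc was not regularly high for Homer1. In 9 of the 18 libraries both deviated from their group mean in the same direction on the log2 scale, by at most 0.26 for Arc and 0.29 for Homer1.

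In CPM, the mean gain at 1 h over naive was 61.7 in dHC and 149 in PL for Arc, and 14.2 in dHC and 19.8 in PL for Homer1.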
